A study of Mus musculus with 6 samples.

Results

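The annexins are a family of calcium-dependent proteins that bind acidic phospholipids at the inner face of cell membranes. The family was chosen by gene symbol with the contrast between control and DMHCA tumors in these same libraries already known, because Anxa1 and Anxa3 stand on the study's own list of genes lowered by DMHCA. It holds 10 genes, Anxa1, Anxa2, Anxa3, Anxa4, Anxa5, Anxa6, Anxa7, Anxa8, Anxa9 and Anxa11, of the 55385 genes in the tables. The differences between groups are therefore given as a description and support no inference about the family.

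Annexins organize membrane domains, join vesicles to membranes and help to seal membrane injuries, and several also act outside the cell. Anxa1 is a glucocorticoid-responsive protein that limits inflammation through formyl peptide receptors, Anxa2 pairs with S100a10 to bind plasminogen at the cell surface, and Anxa5 binds exposed phosphatidylserine on dying cells. In mammary tissue and its tumors annexins are expressed by epithelial, stromal and immune cells.

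RNA was sequenced from mammary tumors of female NeuT/ATTAC mice, 3 libraries from controls and 3 from mice given DMHCA, a sterol that activates LXR, a nuclear receptor for oxysterols. All mice carried an MMTV-driven, constitutively active rat ErbB2 transgene (V664E) and a caspase-8 fused to the FKBPv dimerization domain, which the FABP4 promoter directs to fat cells. The dimerizer AP20187, which activates this caspase and removes part of the mammary fat, was injected intraperitoneally at 0.4 mg/kg 3 times weekly from 6 weeks of age. Treated mice also ate a diet with 0.05% DMHCA, about 100 mg/kg, from 8 weeks of age, and the age at tumor collection is not given in the sources used here. The treatment label of the controls can be read as AP20187 with vehicle or as vehicle alone, and the methods' description of AP20187-treated controls was followed. The labels name the tissue as fibrotic mammary gland, whereas the study describes tumors.

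The 6 libraries held between 46358654 and 63420620 expected counts, the reads that RSEM assigns to genes. DMHCA libraries 1 and 3 were nearly the same: the coefficient of variation that remained after sampling noise was 0.0326 for this pair, against 0.374 to 0.573 in the other 5 pairs within a group. Their counts were summed, so that comparisons rest on 3 control samples and 2 DMHCA samples, and a mean of TPM (a level corrected for transcript length and scaled to the same sum in every library) uses the average of these libraries. The study describes separate mice, but no label ties a library to a mouse. The p-values therefore measure the spread between these samples, which may be partly technical. In bulk tissue, fewer cells of a type and less RNA per cell cannot be told apart.

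Markers of luminal epithelium were abundant in every library, with a summed level of 7 genes of 4498, 3889 and 3388 TPM in control libraries 1, 2 and 3 and of 5199, 5341 and 5217 TPM in DMHCA libraries 1, 2 and 3. Every DMHCA library was above every control in this sum, but 3 of the 7 genes, Epcam, Cdh1 and Krt19, had a lower mean of normalized counts with DMHCA, and Krt8 alone was higher without overlap. Krt19 was at 435 TPM in control library 3 and between 1.51 and 20.1 TPM with DMHCA. Krt18, a keratin of simple epithelia, was the most abundant of them at a mean of 1309 TPM. Other markers set single libraries apart. Control library 1 held salivary gland transcripts, with a summed level of 8299 TPM for 7 genes against 26.5 and 171 TPM in the other controls. The most abundant gene of this list was Bpifa2, a saliva protein, and Smgc of the same list was at 0 in all 6 libraries. The summed salivary level was 1162, 62.2 and 1198 TPM in DMHCA libraries 1, 2 and 3, where Car6, a secreted carbonic anhydrase, made up 1113 TPM in library 1 and 1160.0 TPM in library 3.

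Control library 3 stood apart through lymphocyte, fat and milk transcripts. The summed level of 5 B cell markers was 33.8, 0.96 and 286 TPM in the controls and 2.38, 2.24 and 1.73 TPM with DMHCA, led by Cd79a, a part of the B cell receptor. The 6 T cell markers, led by Cd3g, summed to 19.4, 1.49 and 175 TPM in the controls and to 8.42, 4.43 and 8.12 TPM with DMHCA. Control library 3 was the highest library for both lymphocyte lists.

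Milk genes, led by Csn3 (kappa-casein), summed to 24258, 16839.5 and 56661 TPM in the controls and to 27316, 12206.5 and 28170.1 TPM with DMHCA. Csn3 alone was at 21203, 16773 and 22145 TPM in the controls and at 23156, 12114 and 23866 TPM with DMHCA. Of the 7 milk genes, 6 had a lower mean with DMHCA, with a median log2 fold change of -5.10, while Lalba, a part of lactose synthase, was at 760, 23.6 and 1424 TPM in the controls and at 3799, 36.7 and 3962 TPM with DMHCA. Groups overlapped for all 7. The 6 adipocyte markers, led by the fatty acid carrier Fabp4, summed to 295.5, 133 and 1218 TPM in the controls and to 72.0, 77.8 and 70.3 TPM with DMHCA. In normalized counts all 6 adipocyte markers were lower in every DMHCA sample than in every control sample, while in TPM Plin1, a lipid droplet protein, was at 0.69 in control library 2 and 0.70 in DMHCA library 2. The part of these other tissues and cells in the annexin values was not tested. For Anxa1, Anxa2 and Anxa5 the differences without control library 1 and without control library 3 are given below.

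The 7 macrophage markers, led by the complement gene C1qa, summed to 804, 772 and 942 TPM in the controls and to 816, 655 and 831 TPM with DMHCA. Of these markers 6 had a lower mean of normalized counts with DMHCA, with a median log2 fold change of -0.20. In normalized counts C1qa alone was lower without overlap, at -0.46. The 8 neutrophil markers summed to 57.2, 34.3 and 63.2 TPM in the controls and to 13.2, 218 and 12.0 TPM with DMHCA, of which the alarmin S100a8 made up 199 TPM in DMHCA library 2, while Ly6g, a defining neutrophil marker, was at or below 0.14 TPM in every library. Of the 7 neutrophil markers tested, 6 had a lower mean with DMHCA, with a median log2 fold change of -0.92, and in normalized counts S100a9 at -1.47 and Retnlg at -2.44 were lower without overlap. The 6 fibroblast markers, led by Col3a1, summed to 779, 328 and 1288 TPM in the controls and to 643, 669.7 and 651 TPM with DMHCA. None of these sums separated the control samples from the DMHCA samples.

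Basal and myoepithelial markers, led by the smooth muscle actin Acta2, summed to 63.7, 32.6 and 125 TPM in the controls and to 61.3, 47.6 and 62.6 TPM with DMHCA. All 7 had a lower mean of normalized counts with DMHCA, with a median log2 fold change of -1.52, and Trp63 alone was lower without overlap. The 5 endothelial markers, led by Pecam1, summed to 49.5, 42.7 and 59.3 TPM in the controls and to 55.8, 64.3 and 57.7 TPM with DMHCA, and Cdh5 alone did not overlap between groups, with a log2 fold change of 0.81. The 5 skeletal muscle markers, led by Tnnt3, summed to 562, 1021 and 699 TPM in the controls and to 844, 247 and 912 TPM with DMHCA. The 6 keratinocyte markers, led by Sbsn, stayed between 8.27 and 24.8 TPM.

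Across the genome, edgeR's quasi-likelihood test found 0 of 19427 genes (0.0%) with an adjusted p under 0.05, and 0 of the 10 annexins. At an unadjusted p under 0.05 the same test had 1478 genes, 793 lower (4.08%) and 685 higher (3.53%) with DMHCA, and 3 annexins, all lower. DESeq2 called 1 annexin, Anxa1, as lower at an adjusted p under 0.05, both on the 5 samples and on the 6 libraries. The fit on the 6 libraries counts the near-identical DMHCA libraries 1 and 3 as separate samples, so it is no independent second result. On the 5 samples 0.967% of the 20055 genes with an adjusted p were called lower, and on the 6 libraries 2.68% of 21283. Without control library 2 the unadjusted count was 1 of 10 annexins, beside 9.40% of all genes. Groups did not overlap in normalized counts for 3 annexins, Anxa1, Anxa2 and Anxa5, all lower with DMHCA, while 12.2% of all genes were lower and 13.8% higher without overlap. The count was 5 without control library 3, where 16.7% of all genes were lower without overlap. It was 6 without DMHCA library 2, which leaves a lone DMHCA sample and 23.6% of all genes lower and 26.2% higher without overlap, and 1 of the 6 annexins, Anxa6, was then higher.

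**Figure D1:**
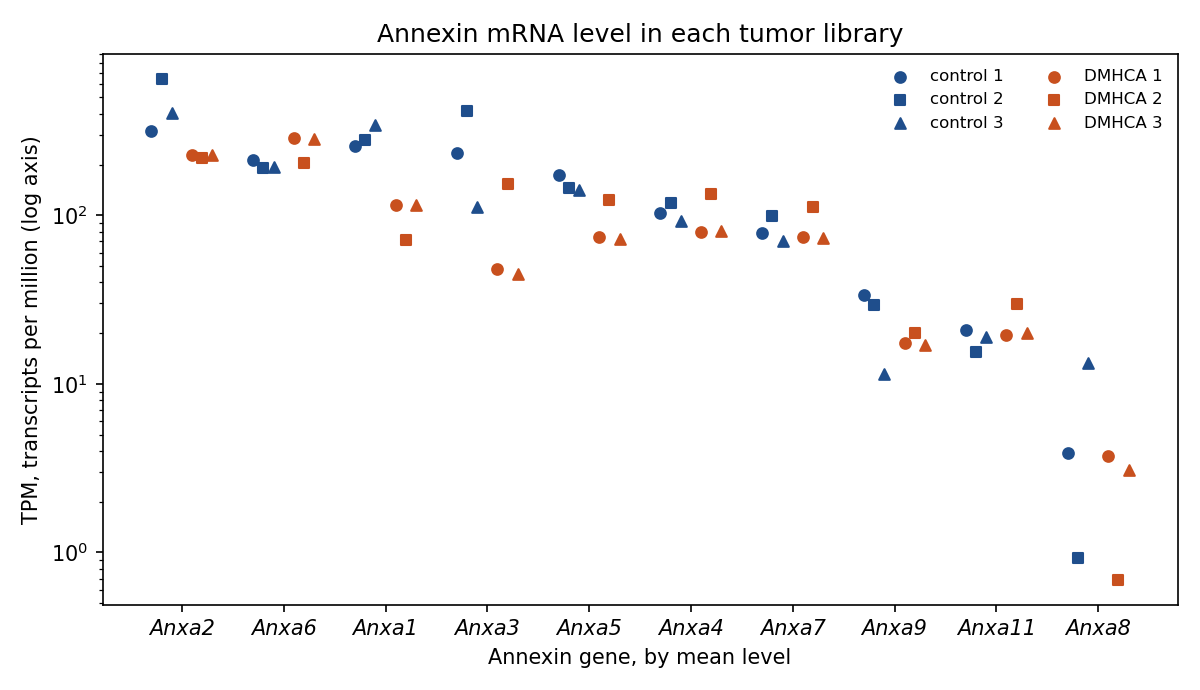
Level of each annexin in the 6 libraries, in TPM on a log axis, with genes ordered by their mean over 5 samples. Blue symbols are control libraries and orange symbols DMHCA libraries; DMHCA libraries 1 and 3 lie close together for each gene, and the controls of Anxa1, Anxa2 and Anxa5 lie above all DMHCA libraries.

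Anxa1 (ENSMUSG00000024659, chr19:20373428-20390944 on GRCm38), the mediator that restrains neutrophil entry, was at 258, 278 and 345 TPM in control libraries 1, 2 and 3 and at 115, 71.7 and 116 TPM in DMHCA libraries 1, 2 and 3. Every control was above every DMHCA library, and DMHCA library 2 was the lowest of all. Normalized counts were 18652 ± 3808 (SD, n = 3) in controls and 5131 ± 1895 (SD, n = 2) with DMHCA. The difference was 3.63-fold, a log2 fold change of -1.86 with a standard error of 0.38 and an edgeR adjusted p of 0.644. It was -2.03 without control library 1, -1.79 without control library 3 and, at its smallest, -1.48 without DMHCA library 2. DESeq2 gave an adjusted p of 0.00721 on the 5 samples and 0.000331 on the 6 libraries, where DMHCA libraries 1 and 3 count as separate samples. Without control library 3, edgeR gave an adjusted p of 0.755.

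The formyl peptide receptors through which secreted Anxa1 acts had low levels. Fpr2, the highest of the 5 on the list, had a mean level of 1.26 TPM and Fpr1 lay between 0.55 and 1.34 TPM, while Fpr-rs3 and Fpr-rs4 were at 0 in all libraries. The 2 receptors that could be tested, Fpr1 and Fpr2, had overlapping groups.

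Genes that respond to glucocorticoids, as Anxa1 does, were divided in direction: 4 of 8 had a lower and 4 a higher mean with DMHCA, with a median log2 fold change of -0.22 against -0.03 over all genes. Sgk1, a kinase of salt transport and the most abundant of them at 96.3 TPM, was at 94.1, 88.0 and 84.2 TPM in the controls and at 65.7, 153 and 58.1 TPM with DMHCA. DMHCA library 2 was thus the highest and DMHCA library 3 the lowest library for Sgk1. The transcription factor Zbtb16 was the 1 member with an unadjusted p under 0.05, at 0.48, 0.08 and 3.80 TPM in the controls and 0.10, 0.05 and 0.07 TPM with DMHCA. Its log2 fold change was -4.42 with a standard error of 1.63, and control library 3 was far above all other libraries.

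Anxa2 (ENSMUSG00000032231, chr9:69453620-69491795), the plasminogen-binding annexin, was at 316, 643 and 407 TPM in the controls and at 229, 220.1 and 228 TPM with DMHCA. The controls spread widely, with library 2 highest, whereas the DMHCA libraries lay close together and below them. Normalized counts were 25598 ± 13681 (SD, n = 3) in controls and 10436 ± 969.6 (SD, n = 2) with DMHCA. The difference was 2.45-fold, a log2 fold change of -1.29 with a standard error of 0.49 and an edgeR adjusted p of 0.644. It was -1.57 without control library 1, -0.78 without control library 2, -1.42 without control library 3 and -1.16 without DMHCA library 2, and the unadjusted p was above 0.05 without control library 2 and without DMHCA library 2.

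S100 proteins bind annexins as calcium-sensing partners, and all 6 on the list had a lower mean with DMHCA, with a median log2 fold change of -1.12. S100a10, the subunit that joins Anxa2 at the cell surface, was at 248, 524 and 534 TPM in the controls and at 275, 205 and 286 TPM with DMHCA. Control library 1 lay between the DMHCA libraries, so the groups overlapped. S100a6, also called calcyclin, was at 704, 1078 and 598 TPM in the controls and at 147, 195 and 149 TPM with DMHCA. Its groups were far apart, with a log2 fold change of -2.49, a standard error of 0.47 and an edgeR adjusted p of 0.644. S100a13, a factor in the release of proteins that lack a signal peptide, was at 79.6, 106 and 123 TPM in the controls and at 53.2, 56.8 and 50.1 TPM with DMHCA. Its groups did not overlap either, with a log2 fold change of -1.15 and a standard error of 0.34. S100a11, a partner of Anxa1 and the most abundant of the list at a mean of 1230.2 TPM, was at 1542, 1590.2 and 989 TPM in the controls and at 812, 1236 and 774 TPM with DMHCA, and its groups overlapped through control library 3.

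**Figure D2:**
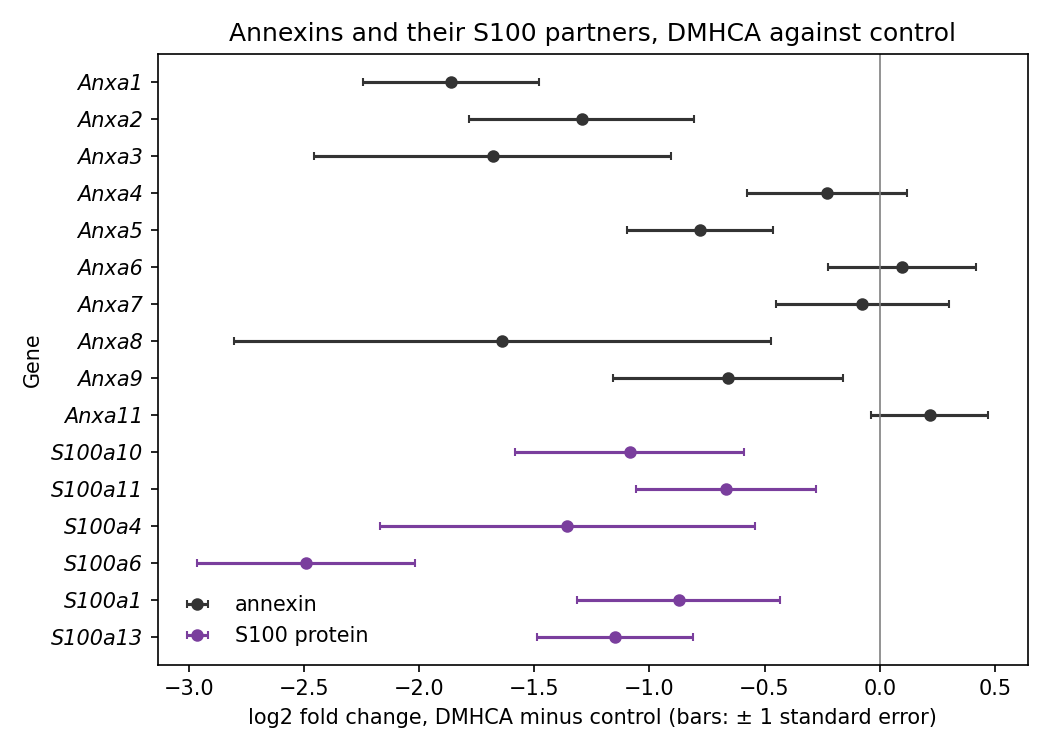
Log2 fold change of each annexin (black) and of 6 S100 proteins (purple), DMHCA minus control, from edgeR on 3 control and 2 DMHCA samples; bars are ± 1 standard error. Points left of 0 are lower with DMHCA; Anxa6 and Anxa11 are right of 0, and Anxa7 at -0.08 turned positive on the TPM scale and without control library 2, as did Anxa4 without control library 2.

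Of the 5 tested genes of the plasminogen system, 4 had a lower mean with DMHCA, and the median log2 fold change was -0.44. Serpinb2, a serine protease inhibitor, had an unadjusted p under 0.05 but reached only 0.29 TPM in any library, with a log2 fold change of -1.98 and a standard error of 0.70.

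Anxa3 (ENSMUSG00000029484, chr5:96793339-96845966), an annexin abundant in neutrophils and in some epithelia, was at 234, 418 and 112 TPM in the controls and at 48.1, 154 and 45.0 TPM with DMHCA. DMHCA library 2 was above control library 3, so the groups overlapped. Normalized counts were 15985 ± 12150 (SD, n = 3) in controls and 4989.7 ± 3550.4 (SD, n = 2) with DMHCA, a log2 fold change of -1.68 with a standard error of 0.78 and an edgeR adjusted p of 0.644. The difference varied with the libraries more than that of Anxa1: it was -0.88 without control library 2, -2.07 without control library 3 and -2.65 without DMHCA library 2.

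Anxa5 (ENSMUSG00000027712, chr3:36448923-36475894), the phosphatidylserine-binding annexin, was at 173, 145 and 142 TPM in the controls and at 74.1, 123 and 72.8 TPM with DMHCA. DMHCA library 2 approached the lowest control without reaching it. Normalized counts were 9638 ± 1523 (SD, n = 3) in controls and 5607 ± 1771 (SD, n = 2) with DMHCA, a difference of 1.72-fold, a log2 fold change of -0.78 with a standard error of 0.32 and an edgeR adjusted p of 0.644. It was -0.85 without control library 1, -0.65 without control library 2, -0.86 without control library 3 and -1.11 without DMHCA library 2, and the unadjusted p was above 0.05 without any 1 of the controls.

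Of 8 genes that place phosphatidylserine on the outer membrane leaflet or return it, 6 had a lower and 2 a higher mean with DMHCA. Their median log2 fold change was -0.14. Tmem30a, the subunit shared by flippases and the most abundant of them at 51.2 TPM, lay between 43.9 and 56.9 TPM in all libraries. Plscr1, a phospholipid scramblase, was at 26.2, 29.1 and 43.6 TPM in the controls and at 17.9, 8.37 and 17.9 TPM with DMHCA. Its groups did not overlap, and its log2 fold change was -1.43 with a standard error of 0.45. Phospholipases A2, whose activity annexins can restrain, had 0 of 5 tested genes with an unadjusted p under 0.05 and a median log2 fold change of -0.35. The most abundant of them, Pla2g7, which inactivates platelet-activating factor, was at 244, 203 and 53.9 TPM in the controls and at 29.9, 210.1 and 27.2 TPM with DMHCA, with DMHCA library 2 among the controls.

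Anxa4, Anxa6, Anxa7 and Anxa11 had overlapping groups and differences smaller than their standard errors. Anxa6, the annexin with a doubled repeat core, was at 214, 192 and 194 TPM in the controls and at 288, 204 and 283 TPM with DMHCA, a log2 fold change of 0.10 with a standard error of 0.32. In TPM, DMHCA library 2 was among the controls and DMHCA libraries 1 and 3 above them, while in normalized counts DMHCA library 2 was below every control. Anxa4, found at the lateral membrane of secretory epithelia, lay between 79.6 and 135 TPM, and Anxa7, also called synexin, between 70.1 and 112 TPM, with DMHCA library 2 the highest library for each in TPM and control library 2 the highest in normalized counts. Their log2 fold changes were -0.23 and -0.08, and without control library 2 they were 0.03 and 0.27. Without DMHCA library 2 the log2 fold change was -0.52 for Anxa4, 0.41 for Anxa6, -0.30 for Anxa7 and 0.01 for Anxa11. Anxa11, which tethers RNA granules to lysosomes, lay between 15.4 and 29.8 TPM, with a log2 fold change of 0.22 and a standard error of 0.25. The direction of Anxa7 depended on scale: on log2(TPM + 1) it was 0.16 with DMHCA, on a scale where the median of all genes was itself higher by 0.20.

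Membrane repair and ESCRT genes, which work with annexins at injured membranes, had 7 of 12 tested genes with a lower and 5 with a higher mean, and a median log2 fold change of -0.09. Chmp4b, an ESCRT filament subunit and the most abundant at 207 TPM, was at 206, 147 and 174 TPM in the controls and at 272, 236 and 269 TPM with DMHCA, with every DMHCA library above every control. Ahnak, a giant scaffold that binds the Anxa2 and S100a10 complex, was at 55.6, 55.8 and 64.4 TPM in the controls and at 27.0, 22.4 and 27.0 TPM with DMHCA. Its log2 fold change was -1.43 with a standard error of 0.33 and an edgeR adjusted p of 0.644. Kinases that phosphorylate annexins, with Src the most abundant at 50.7 TPM, had 0 of 7 with an unadjusted p under 0.05 and a median log2 fold change of -0.09. Src was at 55.5, 34.3 and 26.7 TPM in the controls and at 69.6, 67.2 and 69.8 TPM with DMHCA. Over the 8 lists of partners, 6 of 53 tested genes had an unadjusted p under 0.05, all lower with DMHCA (11.3%), beside 4.08% of all genes, and nothing is read from this difference.

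Anxa8 and Anxa9 were, with Anxa11, the least abundant of the 10 members. Anxa8, an annexin of basal and squamous epithelia, was at 3.88, 0.93 and 13.3 TPM in the controls and at 3.73, 0.69 and 3.10 TPM with DMHCA. Control library 3 was its highest library, as it was for the basal keratins Krt5 at 14.3 TPM and Krt14 at 22.2 TPM, and without it the log2 fold change of Anxa8 was -0.30 in place of -1.64. It was -2.13 without control library 2 and -0.84 without DMHCA library 2. Anxa9, which lacks strong calcium binding, was at 33.6, 29.4 and 11.4 TPM in the controls and at 17.5, 19.95 and 16.9 TPM with DMHCA. Control library 3 was its lowest library, and without it the log2 fold change was -1.02 in place of -0.66, and without control library 2 it was -0.32. The other annexins in the tables, Anxa10 and Anxa13, reached at most 0.05 and 0.47 TPM and did not pass the filter on low counts, which all 10 members passed.

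Ranked by mean TPM over the 5 samples, the level was 363 TPM for Anxa2, 218 for Anxa6, 214 for Anxa1, 193 for Anxa3, 131 for Anxa5, 106 for Anxa4, 86.7 for Anxa7, 22.3 for Anxa9, 21.0 for Anxa11 and 4.44 for Anxa8. Neighbors in this order overlapped over the samples except at 2 places: Anxa7 was above Anxa9 in every sample, with a lowest level of 70.1 TPM against a highest of 33.6 TPM, and Anxa11 above Anxa8, with 15.4 against 13.3 TPM. Anxa4 was also above Anxa7 in 5 of 5 samples, though their ranges overlapped. In controls the order by mean TPM began with Anxa2, Anxa1, Anxa3 and Anxa6, and control library 1 had this order. It began with Anxa2, Anxa3, Anxa1 and Anxa6 in control library 2 and with Anxa2, Anxa1, Anxa6 and Anxa5 in control library 3. The DMHCA libraries differed in order: it began with Anxa6, Anxa2, Anxa1 and Anxa4 in libraries 1 and 3 and with Anxa2, Anxa6, Anxa3 and Anxa4 in library 2, where Anxa1 was at place 7.

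The 10 annexins together made up 1435, 1939 and 1406 TPM in the controls and 949, 1069.6 and 938 TPM with DMHCA, so that every control was above every DMHCA library. The mean was 1593 ± 299.8 TPM (SD, n = 3) in controls and 1006 ± 89.3 TPM (SD, n = 2) with DMHCA. Anxa2 held 28.0% of the family's TPM in controls and 22.4% with DMHCA, Anxa1 18.9% and 9.46%, and Anxa6 12.9% and 24.7%. The Anxa6 share was 30.3%, 19.1% and 30.2% in DMHCA libraries 1, 2 and 3. A share also depends on the other members, and the log2 fold change of Anxa6 in normalized counts was 0.10 with a standard error of 0.32. The difference between the mean sums was -587 TPM, and it lay between -681 and -414 TPM with a library left out.

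The genes most like Anxa1 in normalized counts over the 5 samples, by the root mean square difference of centred log2 values among 11779 ranked genes, were Gm5244 at 0.160, As3mt at 0.162, Gpsm3 at 0.182, Plscr1 at 0.237 and Map1b at 0.244. Its nearest annexin was Anxa2 at 0.522. For Anxa3 the nearest were Bace2 at 0.229, Steap3 at 0.243, Mgam at 0.247, Irak1bp1 at 0.277 and Egr2 at 0.278, and the nearest annexin was Anxa5 at 0.760. This likeness uses the contrast between the groups and has no test.

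Neighboring and overlapping genes bear on what the counts hold, because use of strand is not stated for the counting. Exons of Anxa9 (chr3:95296096-95307176) overlap those of Mindy1 on the opposite strand, which was at 67.7, 55.5 and 36.7 TPM in the controls and at 57.6, 104 and 54.8 TPM with DMHCA. Anxa9 also overlaps 6330562C20Rik on its own strand, at 2.66 to 20.8 TPM, so the counts of Anxa9 are uncertain. Gm16144, Gm44036 and Anxa11os, which overlap exons of Anxa2, Anxa4 and Anxa11 on the opposite strand, stayed at or below 0.76 TPM. Within Anxa8 (chr14:34085981-34100571) lies A630023A22Rik on the opposite strand, without shared exon bases, at 2.09, 0.09 and 13.2 TPM in the controls and at 0.74, 0.55 and 0.99 TPM with DMHCA. Control library 3 was the highest library for both genes of this pair. Expected counts of Anxa4 and Anxa11 were not whole numbers in any of the 6 libraries, and those of Anxa9 in 2 of them, which RSEM gives where a read is divided between genes.

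RSEM also gives a mean transcript length for each gene and library, weighted by the abundance of its isoforms, which the choice of the family did not use. For Anxa5 it was 1517, 1699 and 1645 bases in the controls and 1695, 1728 and 1659 bases with DMHCA. Control library 1 had the shortest mean transcript, and the groups overlapped. For Anxa1 it lay between 1596 and 1647 bases, and for Anxa6 between 2475 and 2480.4 bases. No annexin had lengths that separated the groups.

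LXR binds with RXR to AGGTCA repeats spaced by 4 bases in the same direction (DR4). In RefSeq promoter windows of GRCm38.p6, from 250 bases before to 50 after the start, an exact search for this arrangement, on both strands, matched 0 of 11 windows of 8 annexins and 5 of 32851 windows of all genes (0.0152%). Anxa3 and Anxa6 were not searched. No match says only that these letters are not in these windows, and nothing is drawn from it about LXR at any annexin. Anxa2 and Anxa5, which did not overlap between groups, are shown up to the start of their annotated GENCODE exons in lower case, and no bases are in capitals because none matched. The Anxa2 stretch is chr9:69453433-69453619 on the plus strand and the Anxa5 stretch chr3:36475895-36476137 on the minus strand. The window of Anxa1 is not shown because its 250 bases before the RefSeq start lie within a longer annotated first exon.
Anxa2: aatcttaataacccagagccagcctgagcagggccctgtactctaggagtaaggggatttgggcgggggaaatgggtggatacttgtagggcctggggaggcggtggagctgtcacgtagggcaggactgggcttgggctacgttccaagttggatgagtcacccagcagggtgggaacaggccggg
Anxa5: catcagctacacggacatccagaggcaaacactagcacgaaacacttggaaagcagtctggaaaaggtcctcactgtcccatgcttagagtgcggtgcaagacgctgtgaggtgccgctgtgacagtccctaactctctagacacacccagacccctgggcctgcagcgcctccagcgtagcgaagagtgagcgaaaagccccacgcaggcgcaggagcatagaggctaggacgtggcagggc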

How the data were processed

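RNA of 6 tumor libraries was analysed. Per the submitters' processing notes, the authors used FastQC 0.11.9, cutadapt 2.9, Bowtie2 2.4.1 and RSEM 1.3.1 on build mm10, with DESeq2 1.26 in R 3.6. The authors deposited RSEM expected counts, not normalized, with 19.6% to 23.5% of values per library not whole. They also deposited TPM values, scaled to the same sum per library and corrected for length, FPKM values, corrected for length and depth, and transcript lengths. Here expected counts were rounded to whole numbers and compared with edgeR 4.0.16 in R 4.3.3: TMM normalization, filterByExpr defaults (minimum count 10, minimum total 15), the quasi-likelihood F-test and Benjamini-Hochberg adjustment over 19427 genes. Each standard error was taken from the ratio of the log2 fold change to the root of its F value. Normalized counts are TMM-scaled. Libraries of a group were merged where their coefficient of variation (genes averaging 100 counts or more) lay under 0.1 and was exceeded over 5 times by all remaining pairs. This applied to DMHCA libraries 1 and 3, although 18.2% of their genes differed by a chi-square test, against 82.0% to 87.0% in other pairs. Alternatives used DESeq2 1.42.0, limma 3.58.1 on log2(TPM + 1) for genes with a mean of at least 1 TPM, other filters, FPKM levels, a replicate block and each library left out. Genes named are all annexins, members of each partner list with an unadjusted p under 0.05, the most abundant member of each list, and the 5 genes most like Anxa1 and Anxa3 with a mean of at least 300 normalized counts. A gene that this rule names is not reported here. Marker genes named beside their list's sum, and Fpr1, S100a10, Krt5 and Krt14, were chosen after their values were seen. The members and lists were chosen with earlier results of these data known. Coordinates are from GENCODE M21 on GRCm38. The fits were tested on simulated counts. Python 3.11.15, pandas 2.3.3, numpy 2.4.6 and matplotlib 3.10.9 made the tables and plots.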

Additional observations from a re-analysis of the deposited data

How the results depend on the processing

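With 2 DMHCA samples, 1 of them summed from near-identical libraries, the precision of every difference is low, and a lone DMHCA sample is assumed to vary like the controls when DMHCA library 2 is left out. DESeq2 on the 6 libraries gave 846 genes with an adjusted p under 0.05 and counts the near-identical DMHCA libraries 1 and 3 as separate samples. DESeq2 on the 5 samples gave 244 such genes. With edgeR the number of such genes was 0, and 16 without a filter on low counts, and the cause was not tested. It was 0 with each library left out. The number of annexins with an unadjusted p under 0.05 ranged from 1 to 4 over the left-out libraries, lowest without control library 2 (9.40% of all genes) and highest without control library 3 (5.43% of all genes), and the number without overlap from 3 to 6, highest without DMHCA library 2. The family sum differed by -681 to -414 TPM. In FPKM, 2 neighbors in the order of levels were again separated, and Anxa1 ranked above Anxa6.

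Of 150 fold changes of single annexins under alternatives, 145 kept their direction and their side of an adjusted p of 0.05. In the main edgeR fit the lowest adjusted p of any gene was 0.644, so staying on that side shows little about stability. At an unadjusted p of 0.05, Anxa5 was above with DESeq2 on the 5 samples (0.0611), limma (0.0559) and edgeR without a filter (0.0505). Anxa3 fell below it with the same DESeq2 fit (0.0310) and with edgeR without a filter (0.00901). It was also below with the fits that count the 6 libraries as separate samples. These were DESeq2 (0.00239), edgeR without the replicate block (0.0242) and edgeR with it (0.000367). Crossings with a library left out are given above for Anxa2 and Anxa5. Anxa3 and Anxa9 crossed the other way. Without control library 3 the unadjusted edgeR p was 0.0190 for Anxa3, against 0.0696 in the main fit. For Anxa9 it was 0.01375, against 0.231. Anxa1 had an adjusted p under 0.05 with DESeq2 only, at -1.83 on the 5 samples and -1.73 on the 6 libraries, and the cause of this and of the reversals was not tested. Anxa4 reversed without control library 2, at 0.034, and Anxa7 reversed there, at 0.27, and with limma on log2(TPM + 1), at 0.16. Over the left-out libraries Anxa4 ranged from -0.52 to 0.03 and Anxa7 from -0.30 to 0.27.

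Replicate numbers are shared by the groups, and whether they pair samples cannot be told from these libraries. The correlation across genes of same-numbered deviations was -0.11 to 0.39 over 3 pairs, and -0.40 to 0.38 over the 6 other pairs. DMHCA libraries 1 and 3 are nearly the same, so these correlations are not independent of each other. With the replicate number as a block, 0 genes had an adjusted p under 0.05 and 3207 an unadjusted p under 0.05, against 1478 without it, and 4 annexins had an unadjusted p under 0.05. On the 6 libraries without the block there were 2912 such genes.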
